A study of Mus musculus with 2 samples.

Results

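The genes described here encode parts of the blood-retina barrier: the tight junction genes Cldn5, Ocln and Tjp1, the transporter genes Mfsd2a, Abcb1a, Slco1c1 and Slc7a5, the caveolar gene Cav1, and Plvap, a marker of leaky endothelium. They were chosen by name, as the rows of the deposited table that carry these symbols, with earlier results of these data known. All 9 were found, each in 1 row of the 47644 genes of the table. RNA of whole mouse eyeballs was sequenced in 1 control library (labelled NOR) and 1 library of the oxygen-induced retinopathy (OIR) model, both from C57BL/6 mice. In the OIR group the pups entered a hyperoxia chamber at day 7, stayed in it for 5 days, were then kept in ordinary air, and gave their eyes at day 17. No treatment is labelled for the control, and the labels give neither its own collection day nor the number of animals or eyes behind either library. The stated aim of the series concerns the basis of lasting visual dysfunction in this model.

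The inner blood-retina barrier is formed by the endothelium of retinal vessels and the outer barrier by the retinal pigment epithelium. Tight junctions seal the space between cells, while suppression of caveolar vesicle transport limits passage through them. Transporters carry in nutrients such as amino acids, thyroid hormone and omega-3 lipids, and pump out foreign compounds. In OIR, hyperoxia closes growing retinal vessels, and the relative hypoxia after the return to air drives the growth of new vessels, which are known to leak.

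The promoters of 4 of these genes are shown because the levels of Cldn5 and Cav1 and those of Mfsd2a and Slco1c1 differed in opposite directions between the libraries. They come from RefSeq on build GRCm38.p6, which has the coordinates of mm10, and hold 250 bases before the annotated start site and 50 bases from it on, read 5′ to 3′ on the strand of the gene. Capitals mark matches on either strand to ACGTG or GCGTG, the core bound by hypoxia-inducible factors, to ACAAAG or TCAAAG, the core bound by the TCF/LEF factors of Wnt signalling, or to CCGGAA, a core of ETS factors.
Cldn5, chr16:18776597-18776896, plus strand: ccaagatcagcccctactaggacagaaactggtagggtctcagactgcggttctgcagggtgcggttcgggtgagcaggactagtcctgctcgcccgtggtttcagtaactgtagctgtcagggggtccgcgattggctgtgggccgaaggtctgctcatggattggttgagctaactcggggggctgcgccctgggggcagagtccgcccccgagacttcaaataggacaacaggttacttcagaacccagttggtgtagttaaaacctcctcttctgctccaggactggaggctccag
Cav1, chr6:17306085-17306384, plus strand: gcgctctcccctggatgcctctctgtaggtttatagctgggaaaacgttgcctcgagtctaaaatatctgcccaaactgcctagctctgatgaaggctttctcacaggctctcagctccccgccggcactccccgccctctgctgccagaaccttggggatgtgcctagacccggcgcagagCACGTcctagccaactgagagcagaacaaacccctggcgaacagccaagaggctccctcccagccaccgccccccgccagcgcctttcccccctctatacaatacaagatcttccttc
Mfsd2a, chr4:122961139-122961438, minus strand: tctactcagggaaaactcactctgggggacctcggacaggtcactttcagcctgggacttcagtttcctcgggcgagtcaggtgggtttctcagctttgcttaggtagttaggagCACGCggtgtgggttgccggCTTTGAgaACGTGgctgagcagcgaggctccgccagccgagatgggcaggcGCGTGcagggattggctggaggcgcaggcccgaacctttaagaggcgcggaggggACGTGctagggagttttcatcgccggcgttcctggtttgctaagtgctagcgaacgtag
Slco1c1, chr6:141524104-141524403, plus strand: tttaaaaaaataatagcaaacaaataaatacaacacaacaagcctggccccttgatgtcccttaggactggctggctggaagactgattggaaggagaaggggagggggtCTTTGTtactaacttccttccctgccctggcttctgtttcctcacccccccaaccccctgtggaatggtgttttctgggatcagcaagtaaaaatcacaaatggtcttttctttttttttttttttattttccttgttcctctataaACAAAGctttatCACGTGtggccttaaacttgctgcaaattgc

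The Mfsd2a promoter held 4 matches to the hypoxia-inducible factor core, whose first bases lie at -135, -107, -64 and -9 from the start site, and 1 TCF/LEF match at -115. The Slco1c1 promoter held TCF/LEF matches at -140 and 8, and a CACGTG, where matches of the hypoxia-inducible factor core on the plus and the minus strand overlap, at 20. Cav1 had 1 match, to the hypoxia-inducible factor core at -68, and the Cldn5 window had none. Such matches are common: of 32851 promoters of 300 bases in the RefSeq table, 43.8% held the hypoxia-inducible factor core at least 1 time, 31.2% the TCF/LEF core and 14.9% the ETS core. They describe letters only, not bound sites. The table matched 7 of the 9 genes, with 9 promoters, and for Abcb1a and Tjp1 its start site lies 92986 and 156537 bases from the start of the gene as the deposited table gives it. Of these 9 promoters, 6 held the hypoxia-inducible factor core, 3 the TCF/LEF core and 1 the ETS core. Among those not shown, Tjp1 held the hypoxia-inducible factor core at -2 and 43, and Ocln at -119 and 41 and, in its second promoter, at -180. Abcb1a held TCF/LEF matches at -180, -153, -58 and 19. Plvap and Slc7a5 had no entry.

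Reads assigned to genes numbered 15741235 in the control and 20378793 in OIR. Retinal and lens genes marked both as eyeball, with Gnat1, the transducin gene of rods, at 3810 FPKM in the control and 3724 in OIR, and the lens crystallin gene Cryaa at 49529 and 35594. FPKM values are scaled to library size and to a gene length, and the length used for them decides how levels of different genes compare. With 1 library per group no difference has a replicate check, and no p-value was computed. The 95% intervals given are exact and cover counting error only, because copies of a molecule made by PCR were not told apart and the spread between animals is unknown. The comparison took in the 15883 genes that reached an FPKM of 1 in the control, in OIR or in both, and all 9 barrier genes were among them.

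Of the 9 genes, 7 stood higher in the OIR library and 2 lower, and all differences were modest. Among all compared genes 64.9% lay above 0 and 35.1% below, so these counts alone are no result about the barrier genes. None of the 9 reached a 2-fold difference of log2(FPKM + 1) in either direction, while 3.07% of all compared genes did so upwards in OIR and 0.718% downwards. The median difference over the 9 was 0.21 on this log2 scale, beside 0.11 over all compared genes. By read share, the number of reads of a gene as a fraction of all reads of its library, the counting interval of the OIR to control ratio lay above 1 for 6 genes, below 1 for 2 and included 1 for 1. Over all compared genes the interval lay above 1 for 36.7% and below 1 for 14.7%. The authors' own scaling factors lower every ratio to 0.908 of its value. With them the interval lay above 1 for 3 genes (Plvap, Cldn5 and Cav1), below 1 for the same 2, and included 1 for 4. The shares over all compared genes were not computed with that scaling, so these counts have no background beside them.

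**Figure D1:**
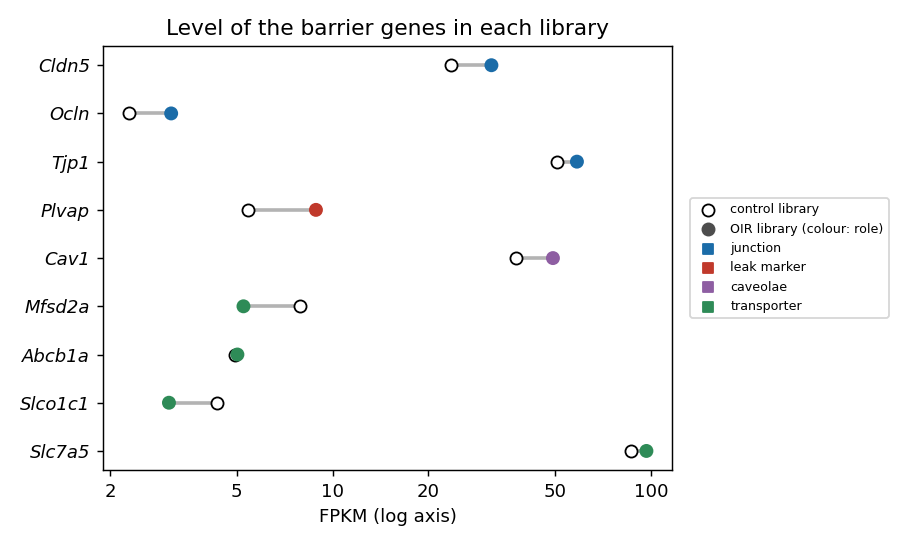
FPKM of the 9 barrier genes (log axis) in the control library (open circles) and the OIR library (filled circles, coloured by role), 1 library each. Mfsd2a and Slco1c1 lie to the left of their control value in OIR, and Plvap moves farthest to the right, from 5.42 to 8.86.

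Among the tight junction genes, Cldn5 encodes claudin-5, the main claudin of barrier endothelium (ENSMUSG00000041378, chromosome 16, 18776847 to 18778260). It had 525 reads in the control and 909 in OIR, or 23.6 and 31.5 FPKM, a ratio of 1.34 (95% interval 1.20 to 1.49). Of all compared genes, 82.6% had a lower difference. Ocln encodes occludin, a membrane protein of tight junctions of epithelium as well as endothelium (ENSMUSG00000021638, chromosome 13, 100496507 to 100552718). It was among the lowest of the 9 in both libraries, with 84 and 148 reads, or 2.29 and 3.11 FPKM. Its ratio of 1.36 was close to that of Cldn5, but the few reads left a wide interval of 1.03 to 1.80, which became 0.939 to 1.63 with the authors' scaling. Tjp1 encodes ZO-1, the scaffold that ties claudins and occludin to actin (ENSMUSG00000030516, chromosome 7, 65296165 to 65527781). It had 2406 and 3610 reads, or 50.5 and 58.6 FPKM, and a ratio of 1.16 (1.10 to 1.22). With the authors' scaling the Tjp1 ratio was 1.05 (0.999 to 1.11). Tjp1 thus lay nearer to the bulk of genes, with 62.6% of them at a lower difference.

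Plvap encodes the diaphragm protein of fenestrae and caveolae, which barrier endothelium largely lacks (ENSMUSG00000034845, chromosome 8, 71497754 to 71511769). It had 172 reads in the control and 364 in OIR, or 5.42 and 8.86 FPKM. This was the highest ratio of the 9, 1.63 (1.36 to 1.97), and 91.9% of compared genes had a lower difference. On the log2(FPKM + 1) scale Plvap, at 0.62, was the only member at least 1.5-fold higher, as were 9.11% of all compared genes. No member was at least 1.5-fold lower, while 2.58% of all compared genes were. The span of Plvap overlaps that of Gtpbp3 on the other strand in the table, though their exons share no base in GENCODE M21. The fenestrated vessels of the choroid, which an eyeball sample holds, are also known to carry Plvap.

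Cav1 encodes caveolin-1, the coat protein of caveolae (ENSMUSG00000007655, chromosome 6, 17306335 to 17341452). It had 548 reads in the control and 928 in OIR, or 37.6 and 49.2 FPKM, a ratio of 1.31 (1.18 to 1.46). There were 0.958 reads of Cldn5 per read of Cav1 in the control and 0.980 in OIR, and the ratio of these, 1.02, had an interval of 0.877 to 1.19.

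The transporters did not go 1 way. Mfsd2a encodes the carrier of omega-3 lysolipids that also restrains caveolar transcytosis in barrier endothelium (ENSMUSG00000028655, chromosome 4, 122946850 to 122961188). It had 152 reads in the control and 131 in the deeper OIR library, or 7.88 and 5.25 FPKM, a ratio of 0.666 (0.523 to 0.847). Only 3.81% of compared genes had a lower difference than its -0.51. Slco1c1 encodes OATP1C1, a transporter of thyroxine (ENSMUSG00000030235, chromosome 6, 141524368 to 141570177). It had 181 and 165 reads, or 4.35 and 3.06 FPKM, a ratio of 0.704 (0.567 to 0.874), and 6.40% of compared genes had a lower difference than its -0.40. These were the members whose read counts were lower in OIR although that library is the deeper.

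Abcb1a encodes a P-glycoprotein that pumps drugs back into the blood (ENSMUSG00000040584, chromosome 5, 8660077 to 8748575). It had 162 and 213 reads, or 4.95 and 5.02 FPKM, and a ratio of 1.02 whose interval of 0.824 to 1.25 included 1. A difference in Abcb1a was therefore not detectable at this depth. In GENCODE M21, 10.1% of its exon bases overlap an antisense gene, Gm42686, and its reads can also be shared with the close copy Abcb1b, so its value is uncertain to that extent. Slc7a5 encodes LAT1, which carries large neutral amino acids and is used by many cell types (ENSMUSG00000040010, chromosome 8, 121881150 to 121907694). It was the most abundant member, with 1964 and 2833 reads, or 86.9 and 96.8 FPKM, and a ratio of 1.11 (1.05 to 1.18). With the authors' scaling that ratio was 1.01 (0.954 to 1.07). Summed over the 4 transporters, of which Slc7a5 holds most reads, the ratio was 1.05 (0.996 to 1.11), and over the 3 junction genes, of which Tjp1 holds most, 1.20 (1.14 to 1.25).

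**Figure D2:**
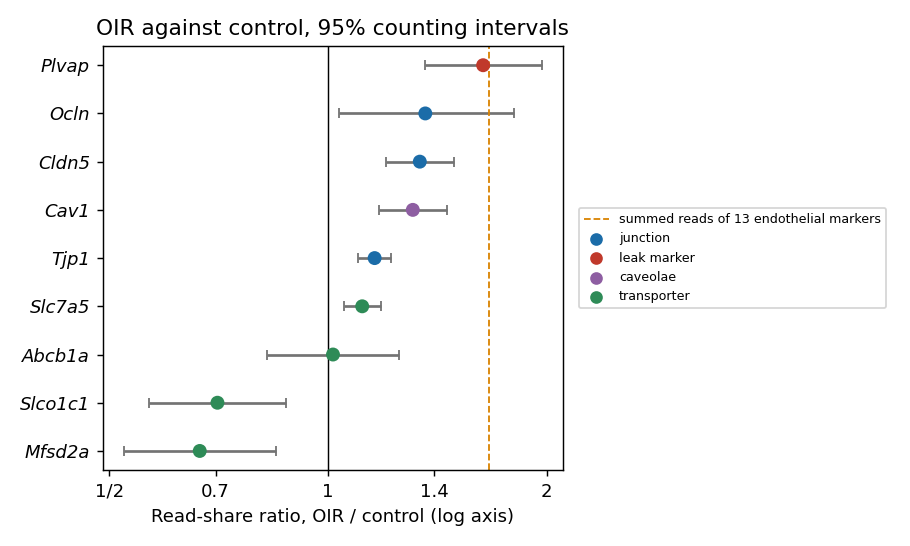
Ratio of read shares, OIR over control (log axis), of each barrier gene with its 95% counting interval, 1 library per group. The vertical line at 1 marks equal shares, and the dashed line the ratio of the summed reads of 13 endothelial markers, 1.67. Mfsd2a and Slco1c1 lie below 1, and the other intervals, except that of Abcb1a, lie above it.

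By FPKM the order of levels in the control was Slc7a5, Tjp1, Cav1, Cldn5, Mfsd2a, Plvap, Abcb1a, Slco1c1 and Ocln. In that order Plvap, Abcb1a and Slco1c1 had counting intervals that overlapped from neighbour to neighbour. In OIR the first 4 places were the same, and Plvap stood above Mfsd2a. The intervals of Mfsd2a (4.39 to 6.23) and Abcb1a (4.37 to 5.74) overlapped there, as did those of Ocln and Slco1c1. Mfsd2a and Plvap thus changed places, with intervals that did not overlap in the control (6.68 to 9.24 for Mfsd2a and 4.64 to 6.30 for Plvap) or in OIR (4.39 to 6.23 and 7.98 to 9.82). The FPKM values rest on lengths that differ from the deposited gene length for most of these genes, for example 925 against 2746 bases for Cav1. Per kilobase of the deposited length, an order computed after the data were seen, Cldn5 came second and Plvap stood above Mfsd2a in both libraries, at 5.42 and 4.49 in the control.

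Ratios of reads between members of the same library do not depend on how libraries are scaled. For each read of Mfsd2a there were 1.13 reads of Plvap in the control and 2.78 in OIR, a 2.46-fold difference (1.81 to 3.34). The reads of Plvap per read of Slco1c1 differed by 2.32-fold (1.74 to 3.10), from 0.950 to 2.21. Cldn5 per Mfsd2a went from 3.45 to 6.94, a 2.01-fold difference (1.54 to 2.62), while Mfsd2a per Slco1c1 stood at 0.840 and 0.794, a ratio of 0.945 (0.681 to 1.31). The 36 pairs share genes and are not independent, and no such share was computed over pairs of all compared genes. Of the 36 pairs, 24 had an interval that excluded 1. These included all 14 pairs of Mfsd2a or Slco1c1 with another member, a grouping made after the values were seen, and 10 of the 21 pairs among the other 7 genes. Plvap per Tjp1 and Plvap per Slc7a5 were among the latter, the second at 1.47 (1.21 to 1.79), whereas Plvap per Cldn5 was not: there were 3.05 reads of Cldn5 per read of Plvap in the control and 2.50 in OIR, a ratio of 0.818 (0.658 to 1.01).

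**Figure D3:**
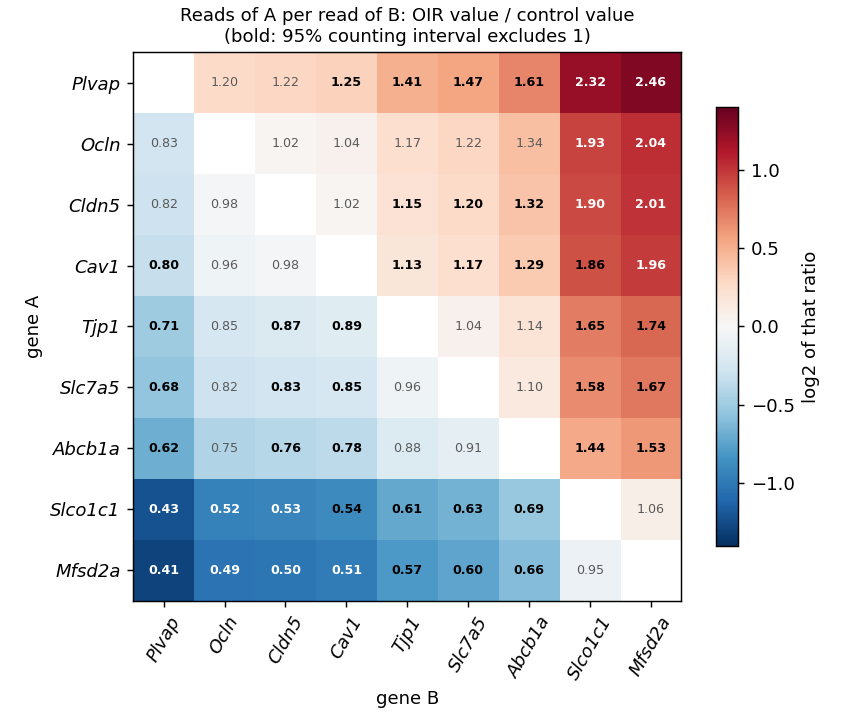
Reads of gene A (rows) per read of gene B (columns), as the OIR value divided by the control value, 1 library each, with colour for its log2. Bold numbers have a 95% counting interval that excludes 1, which holds for 24 of the 36 pairs, and the bottom 2 rows show that Slco1c1 and Mfsd2a stand low against each of the other 7 genes.

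Endothelial RNA itself took a larger share of the OIR library. In bulk samples, fewer cells of a type and less RNA per cell cannot be told apart. The 13 markers of endothelium, none of them among the 9 barrier genes, had a median difference of 0.74 and a range of 0.04 to 1.07, and their summed reads went from 4647 to 10020, a ratio of 1.67 (1.61 to 1.72). Kdr, the main VEGF receptor and the marker with the most reads, stood at 24.4 and 34.2 FPKM, and Flt1, next in reads, at 15.0 and 25.8. The vascular cadherin Cdh5, used below in a narrower reference, stood at 4.49 and 9.52. Its ratio of 2.12 lay above the summed one. The angiopoietin receptor gene Tek was the lowest of the list, with 203 and 272 reads and a ratio of 1.03 (0.860 to 1.25), and was named after its values were seen. The value of a gene per marker read is its read-share ratio divided by that of the markers, so the order of the genes stays the same. Per read of these markers no barrier gene was higher in OIR, since none had a read-share ratio above 1.67. The ratio of Mfsd2a to the markers in OIR was 0.400 of that in the control (0.313 to 0.510), going from 3.27 to 1.31 reads per 100 marker reads. Slco1c1 stood at 0.423 (0.339 to 0.527) and Abcb1a at 0.610 (0.493 to 0.755) of the control value. For Slc7a5 and Tjp1, which many cells outside vessels also express, the values were 0.669 (0.625 to 0.716) and 0.696 (0.654 to 0.741). Cav1 and Cldn5 were close to each other, at 0.785 (0.702 to 0.879) and 0.803 (0.716 to 0.901).

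For Ocln, at 0.817 (0.620 to 1.08), and Plvap, at 0.981 (0.814 to 1.19), the interval included 1. Plvap was the member nearest to 1, with 3.70 reads per 100 marker reads in the control and 3.63 in OIR. Kdr held 36.2% of the marker reads in the control. Without it, a choice made after the data were seen, the interval lay below 1 for 8 genes in place of 7, and Plvap stood at 0.901 (0.745 to 1.09). Against Pecam1 and Cdh5 alone, whose summed ratio was 2.10, all 9 lay below 1, with Plvap at 0.778 (0.631 to 0.962) and Mfsd2a at 0.317 (0.244 to 0.411). The share of all compared genes below 1 on these measures was not computed, so the counts are no result about the barrier genes.

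**Figure D4:**
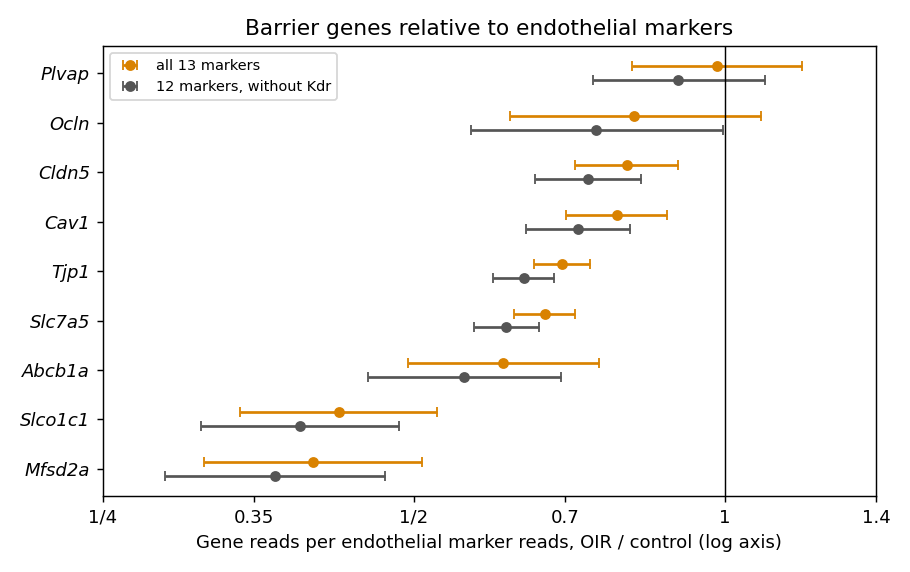
Reads of each barrier gene per read of endothelial markers, as the OIR value divided by the control value (log axis), with 95% counting intervals, for all 13 markers and for 12 without Kdr. Mfsd2a and Slco1c1 lie farthest below 1, at 0.400 and 0.423 with all markers, and Plvap nearest to 1, at 0.981. The order is that of the read-share ratios, since every gene is divided by the same marker ratio.

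Markers of other tissues in the eyeball stood beside these values. The 10 surface epithelium markers were all higher in OIR, with a median difference of 1.14 and a summed ratio of 3.09 (3.02 to 3.16). Krt5 and Aldh3a1, the most abundant of them, went from 110 to 391 and from 120 to 403 FPKM. Pericyte markers had a median of 0.62 over 7 genes, all above 0, with single differences from 0.46 to 1.02, and erythrocyte markers one of 1.39 over 5. The pigment epithelium list, of the outer barrier, had a median of 0.10 over 7 genes and a summed ratio of 0.982 (0.964 to 1.00). Its single differences went both ways, from -0.52 to 0.52, and Best1, at 0.32 and 0.54 FPKM, was below the level compared. Muller glia markers had a median of -0.12 over 6, with a range of -0.79 to 0.44. Lens markers had a median of -0.51 over 7, with Lim2 listed at 0 in both libraries. Ciliary body markers had a median of -0.39 over 5 genes, a range of -1.31 to 0.31 and a summed ratio of 0.845 (0.827 to 0.863), led in abundance by Ptgds at 792 and 603 FPKM and Aqp1 at 41.9 and 52.3. The lens and ciliary body medians both lay near the differences of Mfsd2a, -0.51, and Slco1c1, -0.40. Of the 5 ciliary body markers, 2 lay above 0. Muscle markers had a median of 0.26 over 6, with a range of -0.44 to 1.27. Rod markers had one of -0.01 over 6, with a range of -0.28 to 0.23. The part of these tissues in the values of the 9 barrier genes was not tested.

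Among the other tight junction genes the highest in OIR were Cldn4, Marveld3 and Tjp3, which are known from epithelial junctions. Of 24 genes, all compared, 18 lay above 0 and 6 below, with a median difference of 0.31, and 3 passed 2-fold on the log2(FPKM + 1) scale upwards and none downwards. Of all compared genes 64.9% lay above 0, and 3.07% and 0.718% passed 2-fold in these directions. The 3 were the claudin gene Cldn4, from 2.87 to 9.43 FPKM, Marveld3, a relative of occludin, from 1.80 to 5.57, and Tjp3, a relative of ZO-1, from 1.55 to 4.49. The surface epithelium markers, with their summed ratio of 3.09, were also higher. A link between them and these 3 genes was not tested. At the other end were Cldn10, from 3.67 to 1.44 FPKM with a ratio of 0.391 (0.263 to 0.573), and Cldn19, a claudin of the pigment epithelium, from 5.02 to 3.12 with a ratio of 0.623 (0.503 to 0.770). All 10 adherens junction genes lay above 0, with a median of 0.34, and none reached 2-fold on the log2(FPKM + 1) scale. Cdh5 led, with a difference of 0.94 on that scale and a read-share ratio of 2.12 (1.85 to 2.44), followed by Jup, which encodes plakoglobin, at 1.81 (1.65 to 1.97). Ctnnb1, the beta-catenin gene, stood at 257 and 263 FPKM, and Ctnnd1, for p120 catenin, at 2.45 and 2.82.

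Among 22 other genes of barrier transport, receptors such as Insr included, the median was 0.18. Of them 17 lay above 0 and 5 below, beside 64.9% and 35.1% of all compared genes. None was 2-fold apart on the log2(FPKM + 1) scale. Their reads come from whole eyeballs, not from endothelium alone. Slc7a1, a carrier of cationic amino acids, had a ratio of 1.94 (1.70 to 2.23) and Insr, the insulin receptor, 1.60 (1.498 to 1.71). The lowest differences were those of Slco1a4, an organic anion transporter of the same family as Slco1c1, and Slc19a3, a thiamine transporter. Slco1a4 had 348 and 305 reads, or 9.43 and 6.39 FPKM, a ratio of 0.677 (0.579 to 0.792). Slc19a3, at low FPKM, had 34 and 22 reads, a difference of -0.42 on that scale and a read-share ratio of 0.500 (0.278 to 0.880). Slc22a8, the organic anion transporter OAT3, named after its values were seen, was next at 0.731 (0.622 to 0.859). Of the 22 genes, 4 had an interval below 1 and 10 one above it, beside 14.7% and 36.7% of all compared genes, so that neither count is a result about this list. The fourth of the lower genes was the lactate carrier gene Slc16a1, also named after its values were seen, at 0.932 (0.882 to 0.985). Of the genes tied to LAT1 function, its partner chain Slc3a2 had 153 and 160 FPKM, a ratio of 1.04 (0.988 to 1.10). The carriers of the same substrates Slc7a8 and Slc7a6 had 0.806 (0.759 to 0.855) and 1.11 (0.974 to 1.26), and Slc7a7 1.54 (1.04 to 2.32). That list of 6, of which Slc43a1 was below the level compared, had a median of 0.09 over 5.

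Genes of caveolae and vesicle transport had a median of 0.30 over 10 compared genes of 12. Of these, 8 lay above 0 and 2 below, beside 64.9% and 35.1% of all compared genes. Ehd2, an ATPase at the neck of caveolae, had a ratio of 1.71 (1.53 to 1.91) and Cavin1, a coat protein of caveolae, 1.53 (1.41 to 1.68). Cavin2 went the other way at 0.791 (0.651 to 0.960), as did Pacsin3, which bends membranes, at 0.733 (0.676 to 0.796). Cav3 and Cavin4, forms of muscle, were below the level compared. Barrier regulators, genes of the Norrin and Wnt pathway and of endothelial transcription factors, had a median of 0.12 over 14. Sox18, an endothelial transcription factor, had the highest difference on the log2(FPKM + 1) scale, 1.03, from 3.06 to 7.27 FPKM. By read share its ratio of 2.38 (1.83 to 3.11) stood beside 2.84 (1.81 to 4.62) for its relative Sox7, which was named after its values were seen and had 25 and 92 reads. The Wnt co-receptor gene Lrp5 had a ratio of 1.77 (1.53 to 2.04). Lef1, a TCF/LEF factor, had 1.69 and 1.61 FPKM, a ratio of 0.951 (0.677 to 1.34). The median over all compared genes, 0.11, is near the medians of the regulators, the transporters and the large neutral amino acid carriers.

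**Figure D5:**
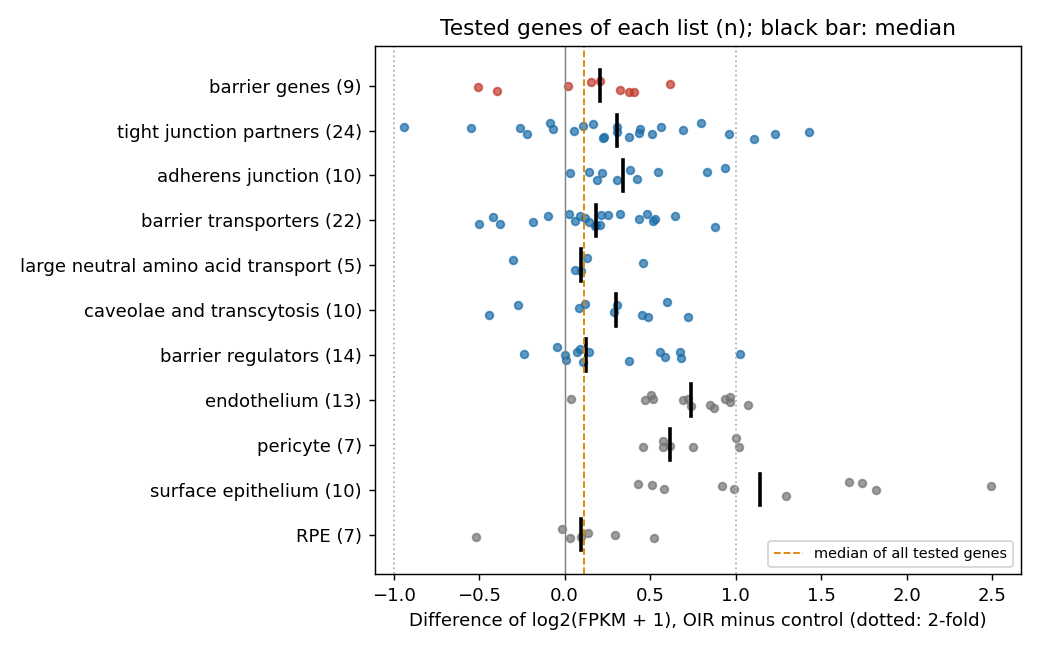
Difference of log2(FPKM + 1), OIR minus control, of the compared genes of each list (points, with their number in brackets; black bar, median), 1 library per group. The dashed line marks the median of all compared genes, 0.11, and the dotted lines a 2-fold difference. The medians of the endothelium, pericyte and surface epithelium lists, 0.74, 0.62 and 1.14, lie to the right of the 9 barrier genes at 0.21.

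In the authors' deposited table, the log2 fold changes of OIR against control were 0.57 for Plvap, 0.30 for Ocln, 0.28 for Cldn5, 0.25 for Cav1, 0.07 for Tjp1 and 0.02 for Slc7a5. The authors' deposited table gives -0.12 for Abcb1a, -0.65 for Slco1c1 and -0.73 for Mfsd2a. It gives each of the 9 an adjusted p-value of 0.99995, from a comparison of 1 library with 1 library.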

How the data were processed

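RNA of whole eyeballs was sequenced in 1 control and 1 OIR library. The build mm10 and the tools TopHat2 2.0.12, Bowtie2 2.2.3 and HTSeq 0.6.1 are named per the submitters' processing notes. Their strand setting and annotation are unstated. Per the file headers, the deposited table holds read counts and FPKM values per gene, counts after the authors' scaling of each library (a signal from which only the scaling factors were taken), and the authors' log2 fold change and p-values, made with a tool not given in the sources used here. Of 47649 lines, 5 broken ones were dropped.

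From these were computed the difference of log2(FPKM + 1), which understates changes at low FPKM, and ratios of read shares with exact conditional (Clopper-Pearson) 95% intervals. Ratios of reads between genes have exact conditional intervals and single levels exact Poisson intervals. A floor of 3 reads corresponds to 0.105 FPKM in the control and 0.0814 in OIR at median transcript length. Genes below an FPKM of 1 in both libraries were left out, and a gene was called at 2-fold by size alone. The intervals were checked on simulated Poisson counts. These hold no PCR copies and no spread between animals, so the check covers the computation only. With 1 sample per group no test was run, and p-values across samples cannot be had.

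The 9 genes and 16 lists (162 genes, all found, 6 of them through GENCODE M21 symbols) were chosen with earlier results of these data known. The genes named in a pathway list are its 2 highest and 2 lowest differences and, up to 6, those past 2-fold with an interval that excludes 1. In marker lists the most abundant genes are named. A few genes picked this way are left out of the text. Any other gene is said to be named after its values were seen, except markers listed at 0 or below the level compared, and genes named for the reference of a ratio or for an overlap. Coordinates are those of the table, on mm10. Python 3.11.15, numpy 2.4.6, pandas 2.3.3, scipy 1.17.1 and matplotlib 3.10.9 were used. Alternatives were other pseudocounts, filters, fold thresholds, scalings and endothelial references.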

Additional observations from a re-analysis of the deposited data

How the results depend on the processing

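Over the 9 alternatives (pseudocounts of 0.1 and 0.01, centring on all compared genes or within 20 bins of transcript length, the authors' factors, TPM with and without other tissues, CPM, and summed rows of repeated symbols), 8 of the 9 differences kept their sign. Abcb1a, at 0.02, was below 0 in 3 of them (lowest -0.10). Tjp1, at 0.21, went to 0.0972 with centring, 0.0717 with the authors' factors, 0.306 as TPM and 0.0524 within length bins. Slc7a5, at 0.15, went to 0.0425, 0.0161, 0.252 and 0.0501 in the same order. With a threshold of 1.5-fold 1 barrier gene was called higher in place of 0. Over all compared genes, 487 were at least 2-fold higher and 114 lower, against 924 and 254 with a pseudocount of 0.1, 251 and 27 with an FPKM filter of 5, and 1447 and 409 at 1.5-fold. Causes of these shifts were not tested beyond what each alternative's construction sets.

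Per endothelial marker reads, all values stayed below 1. With the median marker ratio as reference they were 0.693 for Cldn5, 0.6002 for Tjp1, 0.677 for Cav1 and 0.577 for Slc7a5. With Pecam1 and Cdh5 alone they were 0.637 for Cldn5, 0.552 for Tjp1, 0.778 for Plvap, 0.623 for Cav1, 0.483 for Abcb1a, 0.335 for Slco1c1 and 0.530 for Slc7a5. Without Kdr they were 0.639 for Tjp1 and 0.614 for Slc7a5. The median of the 5 large neutral amino acid carriers went below 0 in 2 of 6 alternatives and that of the pigment epithelium list in 2 of 6; the other 14 lists kept their sign. Few reads limit Ocln, Mfsd2a, Abcb1a, Slco1c1 and Plvap most. No paired analysis was possible because each group is 1 library.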
